A study of Mus musculus with 27 samples.

Results

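The step from day 1 to day 4 of muscle repair was examined in Gsdme KO mice, as the change in muscle mRNA between KO D1 and KO D4. The comparison used 6 of the 27 libraries of the series, 3 per day, and each gene with a TPM of at least 1 in at least 3 of those 6 libraries, which left 13979 of the 55852 entries of the deposited table. TPM gives a gene's share of the transcripts of a library, after allowing for gene length. Per the study's methods the mice were male, the KO was global and the WT strain was C57BL/6J. Both KO groups carried the Gsdme KO and both received cardiotoxin (CTX), a snake venom toxin that lyses muscle fibres, so that neither an uninjured KO group nor a vehicle group enters the comparison. The methods name the gastrocnemius, whereas the deposited design text also names thigh muscle. The titles of these samples read KO, although their genotype field reads Gsdme knockdown, and the word of the titles is used throughout. The age of the mice is not given in the sources used here. The WT groups set beside it, WT D1 and WT D4 with 3 libraries each, had the same injury and the same days without the KO. The deposited design speaks of biological triplicates, and the methods place the whole injured time course of both genotypes in the same sequencing batch.

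After a toxin lyses muscle fibres, neutrophils enter within a day and monocytes follow, recruited by chemokines such as Ccl2. Monocytes turn into macrophages that clear debris, while muscle stem cells divide, express the myogenic factors Myod1 and Myog, and fuse into new fibres that first use embryonic and neonatal myosins. Fibro-adipogenic progenitors, the matrix-forming stromal cells of muscle, expand over the same days. The product of Gsdme, gasdermin E, opens pores in the cell membrane after a caspase cuts it. In whole muscle, fewer cells of a type and less RNA per cell cannot be told apart.

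KO D4 replicate 2 stood apart from the other 5 libraries. It had 12961 genes with at least 1 TPM, where the others had between 13611 and 14380. The 50 most abundant genes held 51.1% of its TPM, against 33.5% to 41.7% in the others. Across the tested genes its log2(TPM + 1) values correlated with KO D4 replicates 1 and 3 at r of 0.913 and 0.926, whereas those correlated with each other at 0.978. Its r was 0.977 with the mean of KO D14, 0.968 with KO D7 and 0.925 with the mean of the other KO D4 libraries. The counts of most lists below are therefore given with and without it, and so are the values of many single genes.

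Gsdme transcript was measured in all KO libraries. Its level was 1.53, 1.28 and 2.17 TPM on D1 and 1.36, 1 and 1.64 TPM on D4, and the 3 values of each day overlapped. On the log2(TPM + 1) scale the KO days differed by -0.18 (exact two-sided permutation test, p = 0.5). The mean was 1.66 ± 0.459 TPM (SD, n = 3) in KO D1 against 3.59 ± 1.11 in WT D1, and 1.33 ± 0.321 in KO D4 against 2.77 ± 0.215 in WT D4. No KO library reached the lowest WT library of its day, and each of those comparisons gave the smallest p that 3 against 3 libraries allow (exact two-sided permutation test, p = 0.1). In the uninjured WT controls, quantified in a separate table and not tested against these groups, the mean was 1.85 ± 0.430 TPM (SD, n = 3), nearer to the KO means than to the injured WT means. Gsdme lies at chr6:50188888-50263862, minus strand (GRCm38, GENCODE release M21).

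Between D1 and D4 in KO muscle, the genes that fell included members of the neutrophil, monocyte, chemokine and stress lists, and those that rose included members of the matrix, stromal and fetal muscle lists. With all 6 libraries, 104 genes were higher on D4 (0.744% of 13979 tested) and 198 were lower (1.42%) at an adjusted p under 0.05, and these genes are described as called. All 302 called genes had 3 D1 libraries and 3 D4 libraries that did not overlap, as did 4502 of all tested genes (32.2%). The median log2 difference of all tested genes was -0.18, so that 8872 genes were below 0 and 5107 above. With the replicate number as a block, a pairing taken from these same values, 642 genes were higher (4.59%) and 1665 lower (11.9%). Without KO D4 replicate 2, 884 were higher (6.32%) and 657 lower (4.70%), and the median of all genes was -0.03. All 302 called genes were also called under both of those settings. Both used these same libraries and raised the counts, so this is no separate support. Because so small a share of all tested genes was called with all 6 libraries, 0 calls in a list below lies near that share. After median-of-ratios scaling the split was 554 higher and 573 lower around a median of 0.02, so the excess of lower over higher calls depended on the scaling. Every single call was lost without KO D1 replicate 1 (0 genes called, lowest adjusted p = 0.0687, 1855 genes at an unadjusted p under 0.05) and without KO D4 replicate 3 (0 genes, lowest adjusted p = 0.0547, 2320 genes at an unadjusted p under 0.05). The same held when genes with low values were kept (0 of 28444 genes, lowest adjusted p = 0.0667, 4173 genes at an unadjusted p under 0.05).

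**Figure D1:**
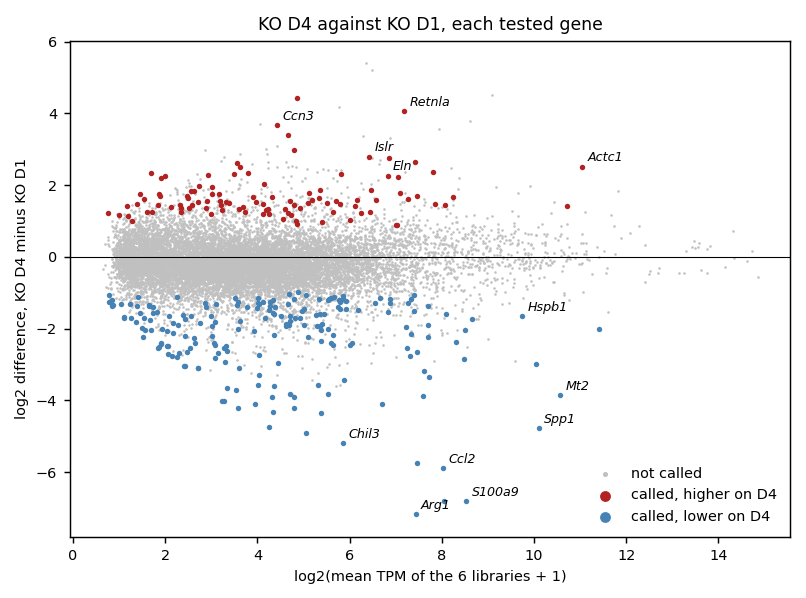
Each point is 1 of 13979 tested genes, with the log2 of its mean TPM over the 6 KO libraries plus 1 on the horizontal axis and its log2 difference of KO D4 minus KO D1 on the vertical axis, and the colours mark the 104 genes called higher and the 198 called lower. Arg1, S100a9 and Ccl2 lie at -7.17, -6.82 and -5.89, and Retnla lies at 4.07 on the other side.

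Position of KO D4 replicate 2 along the step was measured on the genes called without it, as the fraction of the log2 distance from the KO D1 mean to the mean of KO D4 replicates 1 and 3. Of 884 genes higher on D4, 319 (36.1%) had a value in this library below the KO D1 mean and 600 (67.9%) lay less than halfway, with a median position of 0.21. Of 657 genes lower on D4, 489 (74.4%) lay beyond the mean of the other D4 libraries and 14 (2.13%) on the far side of the D1 mean, with a median position of 1.40. On these genes the library thus had the falls of the other D4 libraries, mostly in a larger size, and lacked many of their rises. The genes were chosen on replicates 1 and 3, so a shortfall of replicate 2 against them is partly set by the choice. Its 50 most abundant genes also held 51.1% of its TPM, against 33.5% and 39.3% in replicates 1 and 3, which shifts other genes. The part of either in these positions was not tested.

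**Figure D2:**
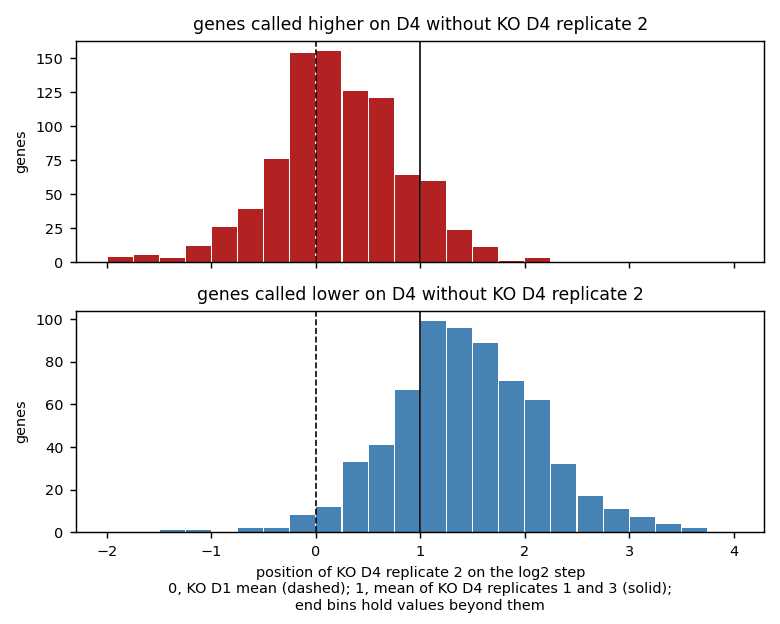
Bars count genes by the position of KO D4 replicate 2 on the log2 step, where 0 is the KO D1 mean and 1 the mean of KO D4 replicates 1 and 3, for the 884 genes higher (top) and the 657 genes lower (bottom) without that library. The upper distribution has its median at 0.21 and the lower at 1.40.

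Many neutrophil genes fell. S100a8 and S100a9, which encode the calcium-binding protein calprotectin of neutrophils, are neighbouring genes at chr3:90668978-90670035, plus strand and chr3:90692632-90695721, minus strand. S100a9 measured 258, 159.9 and 1785 TPM on D1 and 4.31, 2.13 and 2.13 TPM on D4 (log2 difference -6.82 ± 0.83 (SE), adjusted p = 0.0247). S100a8 measured 204, 90.8 and 1286 TPM on D1 and 2.63, 0.4 and 2.35 TPM on D4 (log2 difference -6.81 ± 0.92 (SE), adjusted p = 0.0292). In both genes every D1 library was above every D4 library by a wide margin, and KO D1 replicate 3 was the highest. Cxcr2, the receptor by which neutrophils sense chemokines, had 13.9, 7.36 and 64.3 TPM on D1 and 0.2, 0.12 and 0.2 TPM on D4 (log2 difference -4.10 ± 0.69 (SE), adjusted p = 0.041). Among the neutrophil genes, 0 of 22 tested members rose and 11 fell, against 0 and 18 with the replicate block and 0 and 12 without KO D4 replicate 2. The median log2 difference was -2.67 with all 6 libraries and -2.67 without KO D4 replicate 2, beside -0.18 and -0.03 for all tested genes. Other called members were the granule collagenase Mmp8 (-3.03), the iron-binding Lcn2 (-4.22) and the decoy receptor Il1r2 (-3.58, all log2 differences).

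Several well-known neutrophil genes were not called with all 6 libraries, and their D1 libraries spread widely. Csf3r, the receptor for the neutrophil growth factor, had 46.8, 23.9 and 220.4 TPM on D1 and 7.18, 1.07 and 7.7 TPM on D4 and a log2 difference of -3.60 (adjusted p = 0.0885, 0.00262 with the block). Mmp9, a gelatinase, had a log2 difference of -3.06 (adjusted p = 0.118, 0.0134 with the block), and Retnlg one of -1.26 (adjusted p = 0.446, 0.0235 with the block). Ly6g, which defines neutrophils in mice, was at most 0.38 TPM on D1 and listed at 0 in all 3 D4 libraries, and was not tested.

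Several chemokine and cytokine genes fell too. Ccl2 and Ccl7, neighbouring genes at chr11:82035571-82037453, plus strand and chr11:82045712-82047525, plus strand, encode ligands that recruit monocytes through Ccr2. Ccl2 had 627, 325 and 567 TPM on D1 and 22.5, 1.35 and 9.13 TPM on D4 (log2 difference -5.89 ± 0.77 (SE), adjusted p = 0.0292). Ccl7 had 430.2, 237 and 357 TPM on D1 and 20.6, 0.7 and 5.27 TPM on D4 (log2 difference -5.76 ± 0.83 (SE), adjusted p = 0.0329). Their lowest D4 value was in KO D4 replicate 2 in both cases, and without it the log2 differences were -4.98 and -4.84. Cxcl5, a ligand of Cxcr2, had 40.4, 20.4 and 46.4 TPM on D1 and 0.54, 0.04 and 0.42 TPM on D4 (log2 difference -4.73 ± 0.35 (SE), adjusted p = 0.00909). Ppbp, another ligand of that receptor that platelets carry, had 38.2, 27.8 and 124 TPM on D1 and 0.93, 0.7 and 0.58 TPM on D4 (log2 difference -4.91 ± 0.52 (SE), adjusted p = 0.0159). Cxcl1 and Cxcl2, which also bind Cxcr2, also fell (log2 differences -2.83, adjusted p = 0.013, and -3.10, adjusted p = 0.0292). Il1b, the precursor of interleukin 1 beta, had 15.7, 11.7 and 34.4 TPM on D1 and 2.95, 0.31 and 1.35 TPM on D4 (log2 difference -3.09 ± 0.51 (SE), adjusted p = 0.041).

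In the cytokine and chemokine list, 0 of 32 tested members rose and 13 fell, against 0 and 20 with the replicate block and 3 and 15 without KO D4 replicate 2. Its median log2 difference was -1.81 with all 6 libraries and -1.56 without KO D4 replicate 2. Il1rn, the natural antagonist of the interleukin 1 receptor, was among those that fell (-3.83), together with Cxcl3 (-4.01), Ccl9 (-2.64) and the growth factor Csf1 (-1.86, all log2 differences). Tnf and Il6 were low on D1, with 4.4, 1.99 and 10.5 TPM and 1.12, 1.35 and 3.52 TPM, and their log2 differences of -1.91 and -1.18 were not called (adjusted p = 0.0904 and 0.118, 0.0136 and 0.0226 with the block).

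The recruited monocyte list had the second lowest median of the 36 lists, and Arg1 had the largest fall among the named genes. Arg1, at chr10:24915221-24927484, minus strand, encodes arginase 1, an enzyme of wound macrophages that breaks down arginine. It measured 342, 201 and 479.8 TPM on D1 and 3.75, 0.48 and 0.59 TPM on D4 (log2 difference -7.17 ± 0.52 (SE), adjusted p = 0.00909), so that its mean TPM was 212-fold higher on D1. Chil3, a chitinase-like secreted protein of monocytes and macrophages, had 149, 88.3 and 98.5 TPM on D1 and 4.41, 0.57 and 2.2 TPM on D4 (log2 difference -5.20 ± 0.46 (SE), adjusted p = 0.0113). Ly6c2, the surface marker of inflammatory monocytes, had 171, 64.6 and 79.3 TPM on D1 and 18.6, 3.64 and 7.06 TPM on D4 (log2 difference -3.42 ± 0.58 (SE), adjusted p = 0.041). Clec4d, a pattern receptor of myeloid cells, had 75.5, 49.7 and 107 TPM on D1 and 4.4, 0.51 and 5.07 TPM on D4 (log2 difference -4.35 ± 0.56 (SE), adjusted p = 0.0292, and -3.71 without KO D4 replicate 2). Ccr2, the receptor for Ccl2, had 56.2, 31 and 66.6 TPM on D1 and 19.1, 1.58 and 14.7 TPM on D4, and its log2 difference of -2.41 passed the threshold with the block (adjusted p = 0.00932) and without KO D4 replicate 2 (-1.48, adjusted p = 0.0314) but not with all 6 libraries (adjusted p = 0.133).

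Of the recruited monocyte genes, 0 of 25 tested members rose and 9 fell, against 0 and 21 with the replicate block and 1 and 16 without KO D4 replicate 2. The list median was -2.53 with all 6 libraries and -1.75 without KO D4 replicate 2 (log2 difference). Beside the genes above, the called members were F10 (-3.90), which encodes coagulation factor X, the receptors Clec4e (-3.65), Trem1 (-3.03) and Msr1 (-3.58), and the matricellular protein Thbs1 (-2.53). Trem1 is also in the neutrophil list and Thbs1 also in the matrix list.

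Lipid-associated macrophage genes lay mostly below 0. Spp1, which encodes osteopontin and marks lipid-associated macrophages, fell and had 2581, 1699 and 1986 TPM on D1 and 206, 17.4 and 112 TPM on D4 (log2 difference -4.77 ± 0.81 (SE), adjusted p = 0.0421). Its lowest value was in KO D4 replicate 2, and without that library the log2 difference was -3.75 (adjusted p = 0.00116). Other key genes of that list were not called with all 6 libraries. Trem2, a lipid receptor, had 137, 84.7 and 134 TPM on D1 and 137, 9.42 and 109 TPM on D4, and only KO D4 replicate 2 was below the D1 range (-1.11, adjusted p = 0.47, and 0.07 without it). Fabp5, Lgals3 and Gpnmb had log2 differences of -2.12, -2.28 and -2.0 (adjusted p = 0.0661, 0.17 and 0.258). With the block the adjusted p was 0.00716, 0.0348 and 0.0727. Without KO D4 replicate 2 the log2 differences were -1.58, -1.20 and -0.70 (adjusted p = 0.00423, 0.0175 and 0.0748). Mmp12, a macrophage elastase, stood at -0.90 (adjusted p = 0.457). Over the lipid-associated macrophage list, 0 of 25 tested members rose and 2 fell, against 1 and 8 with the replicate block and 3 and 9 without KO D4 replicate 2. Among all tested genes, 1.42%, 11.9% and 4.70% were called lower under those settings. Of the 25 members, 20 were negative. Their median log2 difference was -0.90 with all 6 libraries and -0.41 without KO D4 replicate 2, beside -0.18 and -0.03 for all tested genes.

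Resident macrophage genes lay on both sides of 0. Of these, 0 of 23 tested members rose and 1 fell, against 4 and 4 with the replicate block and 7 and 3 without KO D4 replicate 2, and the median was 0.06 with all 6 libraries and 0.05 without KO D4 replicate 2 (log2 difference). The called member was Pf4, a chemokine that platelets also carry, with 589, 414 and 885 TPM on D1 and 117, 52.5 and 91 TPM on D4 (log2 difference -2.85 ± 0.38 (SE), adjusted p = 0.0292). Folr2, a folate receptor of resident macrophages, had 79.2, 44.8 and 58.2 TPM on D1 and 157, 59.9 and 123 TPM on D4, called with the block (adjusted p = 0.0379) and without KO D4 replicate 2 (log2 difference 1.22, adjusted p = 0.0271) but not with all 6 libraries (0.82, adjusted p = 0.242). Lyve1, Cd163, Timd4 and Mrc1 had log2 differences of -0.60, -0.29, -0.32 and -0.89, none of which was called under any of those 3 settings. Igf1, a growth factor of muscle repair, was at 0.42 (adjusted p = 0.535) and at 0.89 without KO D4 replicate 2 (adjusted p = 0.0331). Retnla, a secreted product of alternatively activated macrophages at chr16:48842551-48844461, plus strand, had the largest called rise among the named genes, with 18.9, 10.5 and 13.2 TPM on D1 and 417, 137 and 266 TPM on D4 (log2 difference 4.07 ± 0.42 (SE), adjusted p = 0.0142).

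Of 30 tested pan-leukocyte genes 29 were below 0, as were 8872 of all 13979 tested genes. The list median was -1.56 with all 6 libraries and -0.75 without KO D4 replicate 2, beside -0.18 and -0.03 for all tested genes. Among all tested genes 1.42% were called lower with all 6 libraries, 11.9% with the replicate block and 4.70% without KO D4 replicate 2. In the pan-leukocyte list 0 of 30 tested members rose and 0 fell, near that share, against 0 and 21 with the replicate block and 1 and 4 without KO D4 replicate 2. Their summed level was 4271, 2627 and 4973 TPM on D1 and 2676, 361 and 2162 TPM on D4, so that KO D4 replicate 2 had a lower sum than any of the other 5 libraries. Ptprc, the leukocyte surface phosphatase CD45, had 26.9, 12.6 and 53.5 TPM on D1 and 16.6, 1.57 and 14.8 TPM on D4 (-1.62, adjusted p = 0.264, 0.0194 with the block, -0.72 and 0.392 without KO D4 replicate 2). Adgre1 and Cx3cr1 had log2 differences of -0.52 and -0.17 and were not called under those 3 settings. Csf1r, the macrophage growth factor receptor, was at 0.12 with all libraries (adjusted p = 0.91) and at 0.83 without KO D4 replicate 2 (adjusted p = 0.0455).

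Several antigen presentation and complement genes were called higher when KO D4 replicate 2 was left out. For antigen presentation, 0 of 19 tested members rose and 0 fell, against 1 and 1 with the replicate block and 8 and 0 without KO D4 replicate 2. H2-Aa, a chain of the class II molecule that presents antigen, had 161, 126 and 122 TPM on D1 and 638, 127 and 648 TPM on D4, with a log2 difference of 2.24 without that library (adjusted p = 0.00108) and 1.46, adjusted p = 0.206 with it. H2-Ab1 and the invariant chain Cd74 went from 1.13 and 1.28 to 1.85 and 2.02 (adjusted p = 0.259 and 0.236 with the library, 0.00158 and 0.00152 without). Ciita, the transactivator of class II genes, was at 0.30 and 0.93 (adjusted p = 0.732 and 0.034). Of the complement genes, 1 of 18 tested members rose and 0 fell, against 4 and 3 with the replicate block and 11 and 2 without KO D4 replicate 2. C4b had 21.4, 12.1 and 10.9 TPM on D1 and 63.4, 41.5 and 52.2 TPM on D4 (log2 difference 1.79 ± 0.30 (SE), adjusted p = 0.041). C1qa, C1qb and C3 had log2 differences of 0.53, 0.15 and 0.67 with all libraries (adjusted p = 0.603, 0.895 and 0.109) and 1.28, 0.96 and 0.78 without KO D4 replicate 2 (adjusted p = 0.0156, 0.0356 and 0.0202).

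Lymphocyte genes were low. Only 8 of the 28 listed genes were tested, Cd3e, Cd8a and Cd79a stayed at or below 1.06 TPM, and Il7r was the one that fell (11.8, 7.01 and 9.47 TPM on D1 and 1.27, 0.09 and 1.92 TPM on D4, -2.40, adjusted p = 0.041). Interferon-stimulated genes had a median of -0.26 with all 6 libraries and 0.16 without KO D4 replicate 2, and 0 of 30 tested members rose and 0 fell, against 0 and 1 with the replicate block and 0 and 0 without KO D4 replicate 2. Isg15 and Ifit1 were at -0.23 and -0.42 (adjusted p = 0.849 and 0.675).

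Several stress genes fell, among them the metallothioneins, small proteins that bind zinc and copper. Mt1 and Mt2 are neighbours at chr8:94179082-94180327, plus strand and chr8:94172664-94173568, plus strand. Mt2 had 2555, 2712 and 3192 TPM on D1 and 274, 98.1 and 267 TPM on D4 (log2 difference -3.86 ± 0.41 (SE), adjusted p = 0.0164). Mt1 had 1636, 1813 and 2109 TPM on D1 and 316, 142 and 272 TPM on D4 (log2 difference -3.0 ± 0.33 (SE), adjusted p = 0.0179). The D1 values of both lay close together, and the D4 values were all far lower. Hmox1, which degrades heme, had 361, 276 and 498 TPM on D1 and 56.1, 14.3 and 52.8 TPM on D4 (log2 difference -3.35 ± 0.52 (SE), adjusted p = 0.0388, and -2.73 without KO D4 replicate 2). Hspb1, a small heat shock protein that is abundant in muscle, had 1199.9, 1318 and 1371 TPM on D1 and 514, 331 and 411 TPM on D4 (log2 difference -1.65 ± 0.24 (SE), adjusted p = 0.0329). All 24 tested members of the heat shock and proteotoxic stress list were below 0, and 0 of 24 tested members rose and 8 fell, against 0 and 15 with the replicate block and 0 and 14 without KO D4 replicate 2. The list median was -1.10 with all 6 libraries and -1.12 without KO D4 replicate 2 (log2 difference).

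Members of the stress list with other roles were also called, namely the lens and muscle chaperone Cryab (-2.0) and the antioxidant genes Srxn1 (-1.59), Gclm (-1.65) and Txnrd1 (-1.19, all log2 differences). Hspa1a and Hspa1b, nearly identical copies whose reads the counting may split, had log2 differences of -1.02 and -1.38 (adjusted p = 0.118 and 0.0688, 0.0216 and 0.0097 with the block, 0.0723 and 0.0388 without KO D4 replicate 2). Hsp90aa1 was at -1.93 (adjusted p = 0.0983, 0.0046 with the block, 0.0474 without KO D4 replicate 2).

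The promoter windows of Mt1 and Mt2, a pair of neighbours that both fell, and of Hspb1 are shown for the letters that zinc-sensing and heat shock factors are known to bind. Each is the 300 bases around a RefSeq start (250 before and 50 after, GRCm38.p6), read 5′ to 3′ on the strand of the gene. In Mt1 (chr8:94178839-94179138, plus strand) and Mt2 (chr8:94172368-94172667, plus strand), capitals mark the metal response element core, searched as TGCACNC or TGCGCNC on both strands. In Hspb1 (chr5:135887669-135887968, plus strand), capitals mark GAANNTTC or TTCNNGAA on both strands, and none of the matches overlap.
Mt1: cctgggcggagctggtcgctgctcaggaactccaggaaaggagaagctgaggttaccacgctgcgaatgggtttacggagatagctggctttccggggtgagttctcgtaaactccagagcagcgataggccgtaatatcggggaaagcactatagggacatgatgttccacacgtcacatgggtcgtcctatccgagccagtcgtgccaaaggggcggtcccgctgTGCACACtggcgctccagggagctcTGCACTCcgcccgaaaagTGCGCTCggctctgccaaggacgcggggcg
Mt2: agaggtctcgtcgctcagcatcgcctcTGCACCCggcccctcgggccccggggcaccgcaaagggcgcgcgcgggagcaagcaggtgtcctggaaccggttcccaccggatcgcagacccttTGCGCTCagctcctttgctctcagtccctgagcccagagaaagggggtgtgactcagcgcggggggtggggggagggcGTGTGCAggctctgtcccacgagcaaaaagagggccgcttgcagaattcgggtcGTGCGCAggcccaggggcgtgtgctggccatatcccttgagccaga
Hspb1: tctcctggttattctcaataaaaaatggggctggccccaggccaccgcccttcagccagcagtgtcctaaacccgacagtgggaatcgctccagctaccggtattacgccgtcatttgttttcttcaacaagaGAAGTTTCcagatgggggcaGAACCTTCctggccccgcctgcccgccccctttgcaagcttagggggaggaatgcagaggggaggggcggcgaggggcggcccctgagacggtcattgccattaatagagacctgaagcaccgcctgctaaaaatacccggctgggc

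The Mt1 window held 3 matches and the Mt2 window 4, and 25.7% of all 32851 RefSeq windows of that length held at least 1, as did 34.8% of the 13324 windows of tested genes. The Hspb1 window held 2 matches of the heat shock letters, which 15.1% of all windows and 11.9% of those of tested genes held. A match describes letters in the window and was not tested as a site.

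Immediate early genes and ribosome biogenesis genes follow growth and stress signals. In the immediate early and Kruppel-like list 20 of 26 tested members were below 0, as were 8872 of all 13979 tested genes. The list median was -0.41, beside -0.18 for all tested genes (log2 difference). Of its members 0 rose and 2 fell, against 1 and 9 with the replicate block and 1 and 9 without KO D4 replicate 2. Zfp36, which destabilises cytokine mRNAs, had 50, 34.3 and 53.3 TPM on D1 and 15.6, 12.3 and 11.6 TPM on D4 (log2 difference -1.71 ± 0.24 (SE), adjusted p = 0.0318), and Ier3 was the other that fell (-2.22, adjusted p = 0.0462). Fos, Fosl1, Atf3 and Myc had log2 differences of -1.72, -1.88, -1.60 and -1.99, which passed the threshold with the block (adjusted p = 0.00488, 0.0074, 0.00819 and 0.00805) and without KO D4 replicate 2 (0.0428, 0.0476, 0.0355 and 0.00333) but not with all 6 libraries (0.0787, 0.0817, 0.0744 and 0.0647). Jun, Egr1, Klf2 and Klf4 were at -0.39, -0.32, -0.12 and 0.46 and were not called under those settings. All 35 ribosome biogenesis genes were below 0, 0 of 35 tested members rose and 5 fell, against 0 and 25 with the replicate block and 0 and 14 without KO D4 replicate 2. Mybbp1a (-1.20, adjusted p = 0.0329), Noc2l (-1.18, adjusted p = 0.0492) and Utp20 (-1.30, adjusted p = 0.0462), which take part in making ribosomal RNA, were among those that fell. Nop58, Nolc1 and Rrs1 were at -2.05, -1.04 and -0.89 (adjusted p = 0.0904, 0.0727 and 0.13, 0.00717, 0.0176 and 0.0281 with the block, and 0.0207, 0.0266 and 0.0936 without KO D4 replicate 2).

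Proliferation genes were all below 0 with all 6 libraries, and their calls depended on the fit. In the DNA replication and mitosis list 0 of 55 tested members rose and 0 fell, against 0 and 41 with the replicate block and 0 and 6 without KO D4 replicate 2. The median was -1.24 with all 6 libraries and -0.65 without KO D4 replicate 2 (log2 difference). Rrm2, which makes deoxynucleotides, had 31.3, 19.2 and 37.9 TPM on D1 and 12.8, 2.14 and 9.82 TPM on D4 (-1.92, adjusted p = 0.122, 0.00896 with the block, -1.26 and 0.0388 without KO D4 replicate 2). Top2a, a mitotic topoisomerase, had 25.3, 15 and 27.4 TPM on D1 and 15.8, 1.8 and 12.4 TPM on D4 (-1.42, adjusted p = 0.237, 0.0344 with the block, -0.61 and 0.198 without that library). Mki67, Cdk1 and Ccnb1 were at -1.33, -1.47 and -1.16 (adjusted p = 0.198, 0.229 and 0.287, and 0.026, 0.0334 and 0.0532 with the block). Without KO D4 replicate 2 they were at -0.74, -0.66 and -0.44 (adjusted p = 0.195, 0.185 and 0.406). In each of these 5 genes KO D4 replicate 2 was the lowest of the 6 libraries, and the other D4 libraries were lower than or within the D1 range.

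Genes of new muscle fibres were high in KO D4 replicates 1 and 3 and lower in replicate 2. Actc1, the cardiac alpha actin that fetal and regenerating fibres use, rose with all 6 libraries and had 411, 543 and 936 TPM on D1 and 3078, 2469 and 5150.3 TPM on D4 (log2 difference 2.51 ± 0.41 (SE), adjusted p = 0.0395). Myh3, the embryonic myosin heavy chain, had 1.05, 0.71 and 0.82 TPM on D1 and 259, 3.58 and 268 TPM on D4 (5.20, adjusted p = 0.112, 0.0161 with the block), and without KO D4 replicate 2 its log2 difference was 7.15 (adjusted p = 1.66e-05). Myh8, the neonatal myosin, had 0.46, 0.65 and 1.64 TPM on D1 and 222, 7.29 and 255 TPM on D4 (5.40, adjusted p = 0.0783, 0.00834 with the block, 7.01 and 9.80e-05 without that library). Myl4, an embryonic myosin light chain, had 30.9, 23 and 19.5 TPM on D1 and 1549, 76.7 and 1577 TPM on D4 (4.52, adjusted p = 0.0881, 0.0111 with the block, 5.96 and 6.46e-05 without it). Of the developmental sarcomere and fetal muscle list, 2 of 16 tested members rose and 1 fell, against 11 and 2 with the replicate block and 13 and 1 without KO D4 replicate 2. The median log2 difference was 2.47 with all 6 libraries and 3.43 without KO D4 replicate 2.

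Tnnt2, Igf2 and H19, a fetal troponin and a pair of imprinted neighbours, had the same pattern. Their log2 differences with all libraries were 3.32, 3.56 and 1.83 (adjusted p = 0.194, 0.111 and 0.122, and 0.0459, 0.0176 and 0.0274 with the block), and without KO D4 replicate 2 they were 5.09, 4.87 and 2.48 (adjusted p = 3.23e-05, 7.27e-05 and 8.58e-04). Myl9, a light chain of smooth and fetal muscle, also rose (1.61), and Xirp1, an actin-binding protein of injured fibres, fell (-1.26, log2 differences). The Actc1 window (chr2:114052826-114053125, minus strand) is shown because it was the sarcomeric gene with the largest called rise, with capitals on the CArG box, the sequence that serum response factor binds, searched on both strands.
Actc1: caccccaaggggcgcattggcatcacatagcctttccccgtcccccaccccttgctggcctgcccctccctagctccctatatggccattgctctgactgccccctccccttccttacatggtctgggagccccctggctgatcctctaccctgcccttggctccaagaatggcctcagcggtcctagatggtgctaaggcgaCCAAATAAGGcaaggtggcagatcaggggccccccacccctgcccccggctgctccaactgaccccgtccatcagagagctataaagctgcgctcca
It held 1 match, and 1.63% of all RefSeq windows and 1.32% of those of tested genes held at least 1.

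Myogenic regulators were called only with the block or without KO D4 replicate 2, settings that raised the calls among all tested genes too. Those called higher were 0.744% of all tested genes with all 6 libraries, 4.59% with the block and 6.32% without that library. With all libraries 0 of 25 tested members rose and 0 fell, against 4 and 0 with the replicate block and 14 and 0 without KO D4 replicate 2. Mymk, which fuses myoblasts, had 2.4, 1.1 and 3.06 TPM on D1 and 140.0, 6.05 and 169 TPM on D4 (4.17, adjusted p = 0.108, 0.00932 with the block, 5.66 and 3.03e-04 without it), and its partner Mymx had 0.19, 2.22 and 1.91 TPM on D1 and 61.2, 0.96 and 56.2 TPM on D4 (3.10, adjusted p = 0.205, 4.74 and 0.00158 without it). Myog, the factor of differentiating myoblasts, had 57.2, 53 and 32.2 TPM on D1 and 143, 14.3 and 146 TPM on D4, so that replicate 2 was below every D1 library (0.55, adjusted p = 0.706, 1.63 and 0.0108 without it). Pax7 and Myf5 of muscle stem cells and Cdh15, their cadherin, had log2 differences of 0.75, 0.98 and 0.33 with all libraries (adjusted p = 0.3, 0.301 and 0.647) and 1.23, 1.64 and 0.84 without replicate 2 (adjusted p = 0.0142, 0.00785 and 0.0346). Myod1 had 42.2, 38.3 and 81.5 TPM on D1 and 59, 15.1 and 63.4 TPM on D4 and was not called with or without it (-0.39, adjusted p = 0.686, 0.26 and 0.624 without).

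No mature fibre gene was called higher with all 6 libraries, near the 0.744% of all tested genes that were. In that list 0 of 46 tested members rose and 1 fell, against 6 and 1 with the replicate block and 1 and 1 without KO D4 replicate 2, although 40 of 46 were above 0 and the median was 0.39 with all 6 libraries and 0.26 without KO D4 replicate 2. Acta1, the alpha actin of adult fibres, had 20629.6, 30025 and 25709.6 TPM on D1 and 20104, 32907 and 33471 TPM on D4 (0.16, adjusted p = 0.846), and the days overlapped. Myh4, Myh1 and Myh2, the adult fast myosins, had log2 differences of 0.52, 0.43 and -0.02 (adjusted p = 0.467, 0.561 and 0.993). Ckm, Pvalb, Atp2a1 and Ttn were at 0.17, 0.32, 0.86 and 0.28 and were not called. Xirp2, which is induced in damaged fibres, was the one that fell, with 153, 177 and 151 TPM on D1 and 61.1, 80.8 and 70.4 TPM on D4 (log2 difference -1.17 ± 0.19 (SE), adjusted p = 0.039).

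Atrophy and denervation genes included 2 that fell. Trim63, a ubiquitin ligase that degrades sarcomere proteins, had 329, 502 and 395 TPM on D1 and 113, 169.7 and 124 TPM on D4 (log2 difference -1.59 ± 0.25 (SE), adjusted p = 0.0388), and the related Fbxo32 had a log2 difference of -1.37 (adjusted p = 0.0876, 0.00764 with the block, 0.00927 without KO D4 replicate 2). Ankrd1, a titin-binding stress gene, had 194, 139 and 297 TPM on D1 and 63, 4.74 and 66.7 TPM on D4 (-2.78, adjusted p = 0.145, 0.0144 with the block, -1.61 and 0.0185 without that library), and the cell cycle inhibitor Cdkn1a was at 0.61 with it and 1.12 without it (adjusted p = 0.384 and 0.0087). Over the list 0 of 18 tested members rose and 2 fell, against 1 and 7 with the replicate block and 2 and 6 without KO D4 replicate 2.

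Nuclear genes of energy metabolism were mostly above 0, where 5107 of all 13979 tested genes lay. Few were called, as among all tested genes, of which 0.744% were called higher and 1.42% lower with all 6 libraries. Higher calls among all tested genes were 4.59% with the replicate block and 6.32% without KO D4 replicate 2. Of nuclear genes for oxidative phosphorylation, 78 of 79 were above 0, with a median log2 difference of 0.53 with all 6 libraries and 0.38 without KO D4 replicate 2, and 0 of 79 tested members rose and 0 fell, against 14 and 0 with the replicate block and 6 and 0 without KO D4 replicate 2. The key members Ndufa4, Ndufs1, Sdha, Uqcrc2, Cox6a2, Cox7a1 and Atp5a1 lay between 0.36 and 0.63, with adjusted p from 0.169 to 0.61. Mitochondrially encoded genes had a median of -0.39 with all 6 libraries and -0.70 without KO D4 replicate 2, and mt-Nd1, mt-Cytb and mt-Co1 were at -0.31, -0.44 and -0.11 (adjusted p = 0.559, 0.421 and 0.904). In the fatty acid oxidation list 0 of 28 tested members rose and 0 fell, against 3 and 0 with the replicate block and 0 and 0 without KO D4 replicate 2. Cpt1b, which moves fatty acids into mitochondria, was at 1.04 (adjusted p = 0.219, 0.0305 with the block), Acadm, Acadvl and Hadha at 0.53, 0.31 and 0.34, and Pdk4 and Ppargc1a at -0.48 and -0.72, none of them called with all 6 libraries.

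Among glycolysis and glycogen genes 1 of 33 tested members rose and 1 fell, against 9 and 7 with the replicate block and 1 and 6 without KO D4 replicate 2. Tpi1, a glycolytic isomerase, had 779, 1068 and 912 TPM on D1 and 1965, 2617 and 2769 TPM on D4 (log2 difference 1.41 ± 0.26 (SE), adjusted p = 0.0492), whereas the glucose transporter Slc2a1 had 27, 23.3 and 29.9 TPM on D1 and 12.9, 8.44 and 6.18 TPM on D4 (log2 difference -1.49 ± 0.28 (SE), adjusted p = 0.0494). Pfkm, Pgam2, Eno3 and Pygm, the muscle forms of their enzymes, had log2 differences of 0.85, 1.25, 1.17 and 0.85 and passed the threshold only with the block (adjusted p = 0.0309, 0.0152, 0.0204 and 0.0443, against 0.146, 0.101, 0.112 and 0.212). Hk2 was at -0.98 (adjusted p = 0.126, 0.0197 with the block, 0.0135 without KO D4 replicate 2). Ldha and Pkm, at 0.63 and -0.17, were not called under those settings.

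Several matrix and stromal genes rose. Islr, a secreted protein of mesenchymal cells, had 24.5, 20.9 and 14 TPM on D1 and 209, 83.7 and 157 TPM on D4 (log2 difference 2.80 ± 0.37 (SE), adjusted p = 0.0292). Ccn3, a matricellular protein, had 2.17, 1.41 and 1.12 TPM on D1 and 70.2, 11.4 and 37 TPM on D4 (log2 difference 3.67 ± 0.59 (SE), adjusted p = 0.039). Pamr1, a secreted protease-like protein linked to muscle repair, had 2.98, 3.34 and 1.8 TPM on D1 and 76.6, 14.1 and 47.5 TPM on D4 (log2 difference 3.40 ± 0.57 (SE), adjusted p = 0.041), and Sfrp4, a secreted Wnt antagonist, had 8.61, 4.37 and 2.71 TPM on D1 and 77.2, 26.3 and 42 TPM on D4 (log2 difference 2.97 ± 0.48 (SE), adjusted p = 0.039). In all 4 genes KO D4 replicate 2 was the lowest D4 library and still above every D1 library, and without it the log2 differences of Ccn3 and Pamr1 were 4.36 and 4.07. Eln, which encodes elastin, had 45.1, 41.2 and 27.1 TPM on D1 and 256, 143 and 162 TPM on D4 (log2 difference 2.26 ± 0.30 (SE), adjusted p = 0.0292), and the matrix protein Spon2 had 3.07, 2.63 and 1.01 TPM on D1 and 30.5, 10.8 and 17.1 TPM on D4 (2.61, adjusted p = 0.041). Thbs1, an early matricellular protein, went the other way, with 289.8, 179 and 289.6 TPM on D1 and 78.1, 24.5 and 38.5 TPM on D4 (log2 difference -2.53 ± 0.43 (SE), adjusted p = 0.041).

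Most calls among matrix genes needed the block or the removal of KO D4 replicate 2, as did most calls among all tested genes. Of all tested genes 0.744% were called higher with all 6 libraries, 4.59% with the block and 6.32% without that library. Of the matrix list, 3 of 47 tested members rose and 1 fell, against 15 and 1 with the replicate block and 28 and 1 without KO D4 replicate 2, and the median was 1.03 with all 6 libraries and 1.49 without KO D4 replicate 2. Col1a1 had 424, 313 and 294 TPM on D1 and 2610.0, 585 and 1541 TPM on D4 (1.97, adjusted p = 0.102, 0.0123 with the block, 2.56 and 0.00289 without that library). Col3a1 had 649, 561 and 551 TPM on D1 and 3488, 566 and 2444 TPM on D4 (1.53, adjusted p = 0.204, 2.32 and 0.00158 without it). Postn, a matricellular protein of healing tissue, had 141, 90.9 and 122 TPM on D1 and 1966, 41.6 and 1112 TPM on D4, so that KO D4 replicate 2 was below every D1 library (1.96, adjusted p = 0.376, 3.66 and 0.00113 without it). Col12a1 and Sparc were at 1.34 and 0.93 with all libraries and 2.09 and 1.22 without it (adjusted p = 0.254 and 0.175 with it, 0.017 and 0.0228 without). Tnc and Lox, at -0.42 and -0.32, were not called under those settings.

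**Figure D3:**
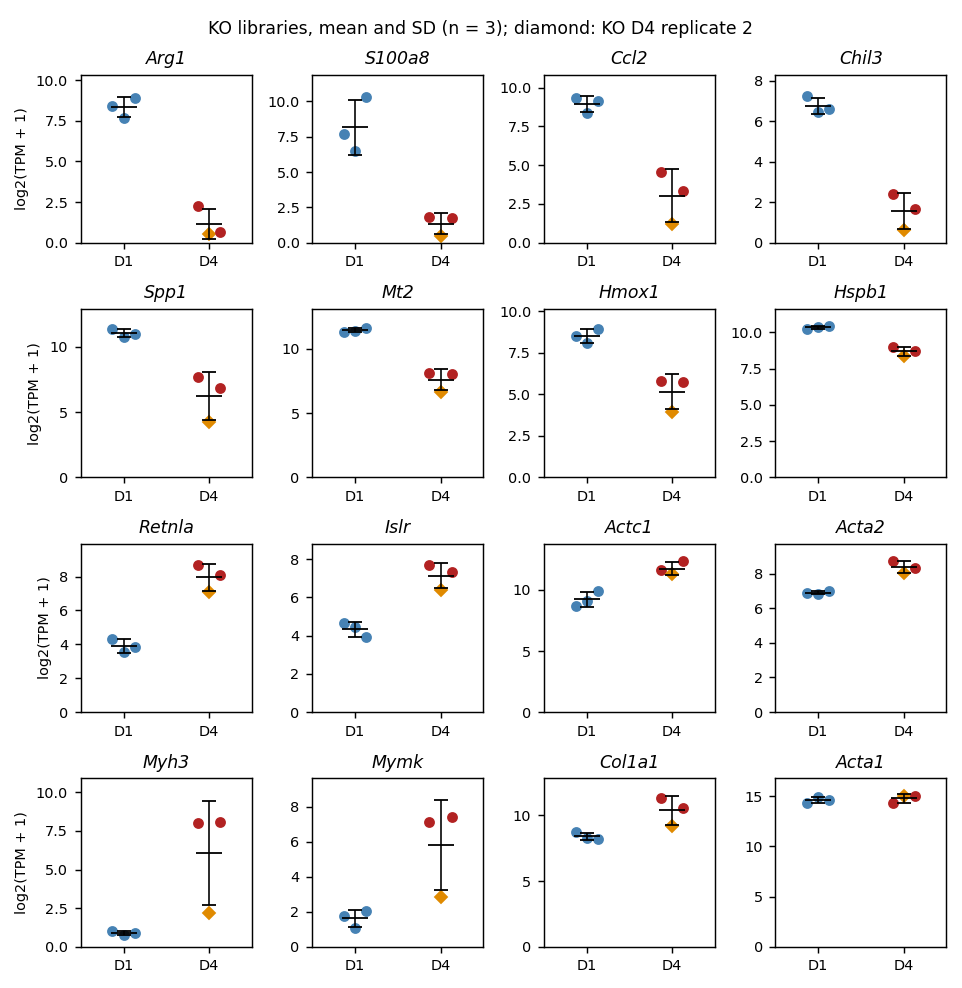
Each panel shows 1 gene as log2(TPM + 1) in the 3 KO D1 and 3 KO D4 libraries, with bars for the mean and SD and a diamond for KO D4 replicate 2. The D1 and D4 libraries are apart in every panel but that of Acta1, where the days overlap. In the panels of Myh3, Mymk and Col1a1 the diamond lies well below the other D4 libraries, though still above the D1 libraries.

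Fibro-adipogenic progenitor genes were mostly above 0. Of these, 2 of 26 tested members rose and 0 fell, against 9 and 0 with the replicate block and 13 and 0 without KO D4 replicate 2. Clec3b, a secreted protein of these cells, had 49.6, 54.9 and 32.8 TPM on D1 and 231, 189.9 and 226 TPM on D4 (log2 difference 2.24 ± 0.24 (SE), adjusted p = 0.0162), with no D4 library set apart from the others, and the tenascin Tnxb had 14.9, 16.2 and 11.3 TPM on D1 and 41.5, 28.1 and 33.6 TPM on D4 (log2 difference 1.22 ± 0.23 (SE), adjusted p = 0.04995). Dpt and Pi16, which mark progenitor subsets, had log2 differences of 1.78 and 1.20 (adjusted p = 0.0891 and 0.0909, 0.0133 and 0.0111 with the block) and of 2.31 and 1.21 when KO D4 replicate 2 was left out (adjusted p = 0.00119 and 0.0527), and Lum was at 1.15 (adjusted p = 0.171, 0.0458 with the block, 1.66 and 0.00332 without that library). Pdgfra and Ly6a, the surface markers that define the cells, were at -0.14 and -0.17 and were not called under any of the 3 settings.

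Proteases and their inhibitors lay on both sides of 0. In that list 0 of 32 tested members rose and 1 fell, against 7 and 10 with the replicate block and 11 and 7 without KO D4 replicate 2. Timp1, an inhibitor of metalloproteases, had 492, 318 and 339 TPM on D1 and 116, 14.9 and 68.9 TPM on D4 (-2.89, adjusted p = 0.0817, 0.00683 with the block, -2.06 and 0.00695 without KO D4 replicate 2). Mmp14, a membrane protease, was at 0.55 with all libraries and 1.39 without replicate 2 (adjusted p = 0.628 and 0.0202), and Mmp3 was at -0.53 (adjusted p = 0.558).

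Of the growth factor list, 0 of 28 tested members rose and 1 fell, against 4 and 4 with the replicate block and 7 and 1 without KO D4 replicate 2. Tgfbi, a matrix protein induced by TGF-beta, had 374, 261 and 379.9 TPM on D1 and 112, 35.8 and 85.1 TPM on D4 (log2 difference -2.24 ± 0.42 (SE), adjusted p = 0.0492). Igfbp5, an insulin-like growth factor binding protein, was at 0.88 (adjusted p = 0.126, 0.0379 with the block, 0.00812 without KO D4 replicate 2) and Inhba, an activin chain, at -1.11 (adjusted p = 0.0883, 0.0195 with the block). Mstn, Tgfb1 and Fst were at 0.26, -0.68 and 0.17 and were not called, and Areg stayed at or below 0.55 TPM and was not tested.

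Other rises came from outside those lists. Pltp, a phospholipid transfer protein, had 28.7, 25 and 22.1 TPM on D1 and 272, 78.5 and 257 TPM on D4 (log2 difference 2.76 ± 0.47 (SE), adjusted p = 0.041, and 3.34 without KO D4 replicate 2). Itgb1bp2, the muscle chaperone melusin, had 42.3, 54.7 and 36.2 TPM on D1 and 318, 165 and 411 TPM on D4 (log2 difference 2.64 ± 0.36 (SE), adjusted p = 0.0292). Mup22, 1 of a family of major urinary proteins with nearly identical copies whose reads may have been shared, had 4.87, 1.27 and 2.28 TPM on D1 and 15.8, 27.5 and 16.2 TPM on D4 (log2 difference 2.52 ± 0.40 (SE), adjusted p = 0.039).

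**Figure D4:**
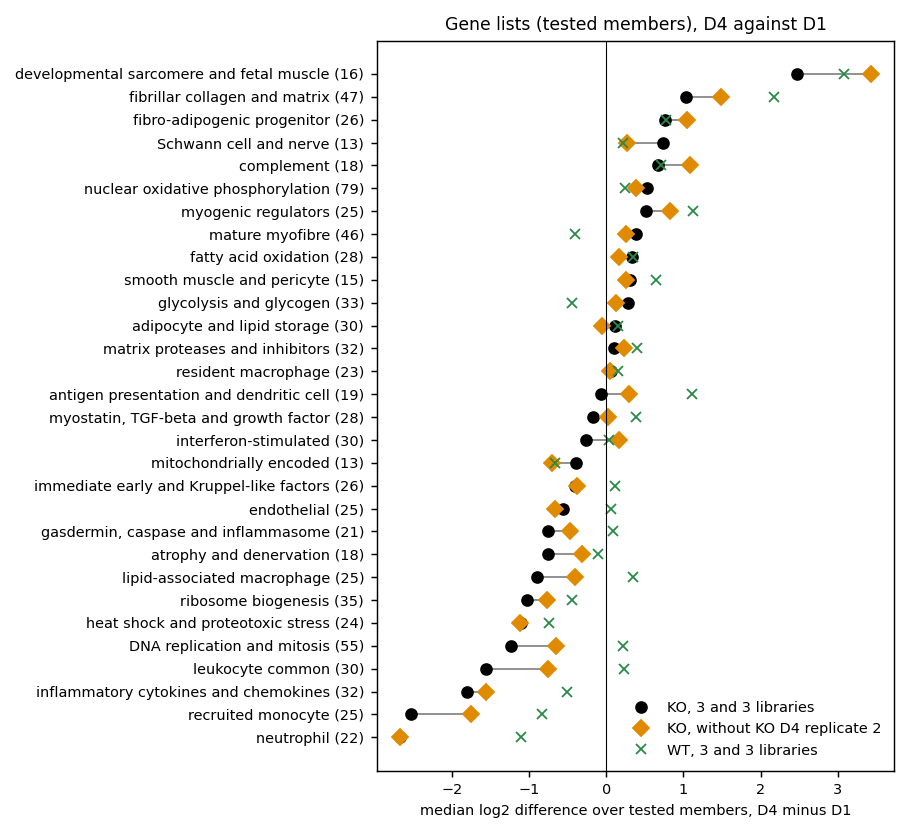
Each line is a list with at least 10 tested members, with the number tested in brackets, and the horizontal axis is the median log2 difference of D4 minus D1 over those members. Circles use all 6 KO libraries, diamonds leave out KO D4 replicate 2 and crosses show the WT step, and the developmental sarcomere list moves from 2.47 to 3.43 and the leukocyte list from -1.56 to -0.75 without that library.

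With all 6 libraries, 2 genes of the smooth muscle and pericyte list were called higher and no endothelial gene was called. Acta2, the smooth muscle actin that activated stromal cells also express, had 118, 111 and 128 TPM on D1 and 425, 266 and 324 TPM on D4 (log2 difference 1.48 ± 0.22 (SE), adjusted p = 0.0378). Of the smooth muscle and pericyte list, 2 of 15 tested members rose and 0 fell, against 4 and 0 with the replicate block and 3 and 0 without KO D4 replicate 2. Myh11, Tagln and Rgs5 were at 0.70, 0.89 and -0.50 and were not called. For the endothelial list, 0 of 25 tested members rose and 0 fell, against 0 and 5 with the replicate block and 0 and 5 without KO D4 replicate 2, and Pecam1, Cdh5, Kdr and Vwf were at -0.61, -0.50, 0.42 and 0.17, with Pecam1 called only without KO D4 replicate 2 (-0.80, adjusted p = 0.0499).

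Markers of nerve and pancreas were highest in KO D4 replicate 2, and their part in the results was not tested. The summed TPM of the Schwann cell and nerve list was 504, 272 and 163 on D1 and 513, 1767 and 257 on D4. Of 13 tested members, 0 were called with all libraries, and Mbp, Sox10 and S100b were at 1.08, 0.27 and 1.45 (log2 differences, adjusted p from 0.127 to 0.698, and 0.0332 for S100b with the block). Without KO D4 replicate 2 they were at 0.18, -0.19 and 1.07 (adjusted p = 0.847, 0.656 and 0.114). The acinar pancreas list summed to between 4.18 and 7.01 TPM on D1 and to 12.1, 98.6 and 24.7 TPM on D4. There Ctrb1, a digestive protease, was 2.52, 27.5 and 7.29 TPM, Cela2a 0, 10.3 and 1.4, Prss2 0, 8.79 and 1.26 and Cpa1 0.55, 2.46 and 0.47, while on D1 each of them was at most 0.34 TPM. Pancreas transcripts were also seen in WT. In WT D1 Ctrb1, Cela2a, Prss2 and Cpa1 reached 15.67, 5.04, 4.33 and 1.84 TPM, and in WT D4 Ctrb1 reached 9.02 TPM.

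Adipocyte genes summed to between 1994 and 2527 TPM in 5 libraries and to 3854 TPM in KO D4 replicate 2. Adipoq, an adipocyte hormone, had 19.8, 4.97 and 1.53 TPM on D1 and 36.4, 59 and 24.2 TPM on D4 (2.50, adjusted p = 0.121, 0.0156 with the block). The lipid droplet genes Plin1 and Cidec and the secreted protease Cfd were at 1.57, 1.58 and 1.88, and Fabp4 and Pparg at -0.32 and -0.23, none called under those settings. Cebpa was at -1.01 (adjusted p = 0.124, 0.0223 with the block). Over the adipocyte list 1 of 30 tested members rose and 0 fell, against 5 and 2 with the replicate block and 2 and 2 without KO D4 replicate 2, and the called member was Thrsp, a lipogenic nuclear protein, with 17.3, 14.5 and 14.9 TPM on D1 and 32.2, 55 and 40.7 TPM on D4 (log2 difference 1.37 ± 0.24 (SE), adjusted p = 0.0437).

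Small control lists added few calls. Among erythrocyte genes, 6 of 11 were tested, the globins Hba-a1 and Hbb-bs and the heme enzyme Alas2 were at -0.58, -0.50 and -0.49 and not called, and the called member was Tfrc, the transferrin receptor of many cell types (12.8, 15.2 and 22.8 TPM on D1 and 53.7, 55.2 and 82.2 TPM on D4, 1.86, adjusted p = 0.0378). Krt5 and Krt14 of epidermis were at most 0.02 TPM. Myh6, Nppa and Tnni3 of cardiac muscle were at most 5.02 TPM, and Nppb, a stretch-induced peptide, had 3.5, 4.24 and 2.8 TPM on D1 and 0.24, 0 and 0.18 TPM on D4 (-1.98, adjusted p = 0.0179). Alb and Apoa1 of liver were at most 2.53 TPM, and Trf, the transferrin gene that other tissues express too, had 45.9, 30.1 and 33 TPM on D1 and 161, 88.1 and 162 TPM on D4 (1.86, adjusted p = 0.039).

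Genes of the gasdermin, caspase and inflammasome pathway were nearly all below 0. In the gasdermin list 0 of 21 tested members rose and 1 fell, against 0 and 8 with the replicate block and 0 and 3 without KO D4 replicate 2. Of its members 20 of 21 were negative, and the median was -0.75 with all 6 libraries and -0.47 without KO D4 replicate 2. The called member was Il1b. Nlrp3, an inflammasome sensor, had 4.91, 2.78 and 10 TPM on D1 and 0.94, 0.12 and 0.54 TPM on D4 (-2.07, adjusted p = 0.0601, 0.0074 with the block, 0.0385 without KO D4 replicate 2). Gsdmd, the gasdermin cut by inflammatory caspases, had 26.4, 18.5 and 31.7 TPM on D1 and 21, 10.5 and 14.9 TPM on D4 (-0.71, adjusted p = 0.22). Casp1, an inflammatory caspase, and the cytokine gene Il18 were at -0.97 and -0.07 and were not called under those 3 settings.

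Whether the step differed between KO and WT muscle was tested as the difference of both steps over 12 libraries. No gene was called (0 of 13979, 0%, limma), the lowest adjusted p was 0.404, and 1289 genes had an unadjusted p under 0.05, or 588 without KO D4 replicate 2. With library quality weights 2599 genes were called, and with the other alternatives none. Of the 302 genes called in the KO step, 291 had the same sign in the WT step. The share among all tested genes was not counted, so this number cannot tell whether the steps were alike. Arg1 differed by -7.17 in KO and -2.68 in WT (difference -4.49 ± 1.89 SE, unadjusted p = 0.0366, adjusted p = 0.404). Spp1 was at -4.77 in KO and -0.67 in WT (difference -4.09, unadjusted p = 0.0214, adjusted p = 0.404). The WT libraries of both days spread widely in both genes. WT D4 replicates 1 to 3 had 151.41, 2.79 and 1.14 TPM for Arg1 and 1312.05, 196.62 and 94.22 TPM for Spp1, and replicate 1 was by far the highest. WT D1 replicates 1 to 3 had 111.24, 142.15 and 19.13 TPM for Arg1 and 858.58, 871.73 and 132.76 TPM for Spp1, and replicate 3 was by far the lowest. Mt2 was at -3.86 and -3.39, Actc1 at 2.51 and 2.36, and Islr at 2.80 and 2.89, with unadjusted p of 0.401, 0.77 and 0.853 for the difference.

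The 5 genes with the lowest p for the difference of steps were Gm36211, Mup9, Aplnr, Ddit3 and Inpp1, each at an adjusted p of 0.404. Gm36211 had 4.04, 3.7 and 3.49 TPM on D1 and 0, 0 and 0 TPM on D4 in KO, and its log2 difference was -2.24 in KO and -0.32 in WT. Mup9, of the urinary protein family, had 0.09, 0 and 0 TPM on D1 and 3.45, 6.8 and 3.04 TPM on D4, at 2.34 and -0.16. Aplnr, the apelin receptor of endothelium, was at -0.78 and 0.89, and Inpp1, an inositol phosphatase, at -0.74 and 0.77. Ddit3, a stress transcription factor, has 2 entries in the table, and the one with the difference, ENSMUSG00000116429, had 134, 368 and 259 TPM on D1 and 88.1, 45.2 and 163 TPM on D4 in KO and 7.13, 0 and 0 TPM in WT D4. Its other entry, ENSMUSG00000025408, was between 19.5 and 33.0 TPM in the 6 KO libraries, so how reads were divided between the entries is uncertain.

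By list, the medians of the steps stood as follows, with no list-wide test. Proliferation genes had a median log2 difference of -1.24 in KO and 0.22 in WT, and leukocyte genes -1.56 and 0.23, beside -0.18 and 0.17 for all tested genes. Without KO D4 replicate 2 the KO medians were -0.65 and -0.75, beside -0.03 for all tested genes. Neutrophil genes were at -2.67 in KO and -1.10 in WT, mature fibre genes at 0.39 and -0.40, and matrix genes at 1.03 and 2.17. Heat shock genes had -1.10 and -0.74. Without KO D4 replicate 2 the KO medians of these lists were -2.67, 0.26, 1.49 and -1.12. Single WT libraries also stood apart in some genes, such as S100a9 with 119.6, 3.84 and 1.26 TPM in WT D4.

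**Figure D5:**
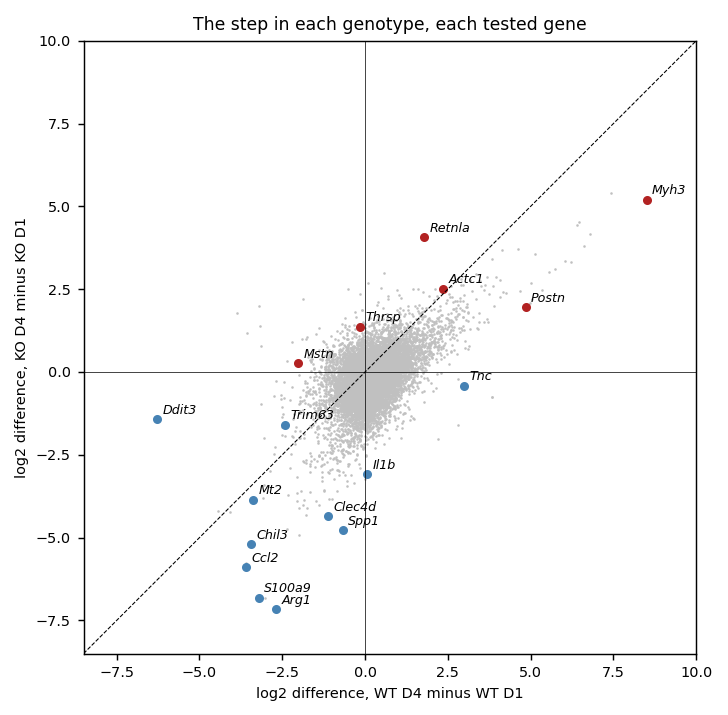
Each point is a tested gene, with the log2 difference of WT D4 minus WT D1 on the horizontal axis and of KO D4 minus KO D1 on the vertical axis, and the dashed line marks equal steps. Labelled genes are red where the KO difference is above 0 and blue where it is below, whether or not they were called. Arg1 lies at -2.68 and -7.17, Spp1 at -0.67 and -4.77 and Retnla at 1.79 and 4.07, and no gene's distance from the line was called.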

How the data were processed

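Muscle mRNA was measured by RNA-seq, and the authors deposited TPM per gene for the injured time course and, in a separately quantified table, for uninjured WT muscle, which was not used in any test. The build was mm10 per the submitters' processing notes, and the aligner and counter are not given in the sources used here. TPM holds no read depth, so the depth per library is unknown and no counting interval was computed. Differences are on the log2(TPM + 1) scale, which understates the change of low genes, among genes with at least 1 TPM in at least 3 of the 6 KO libraries. Tests used limma 3.58.1 in R 4.3.3 (empirical Bayes with a variance trend) with Benjamini-Hochberg adjustment over 13979 genes and a threshold of 0.05. The script was tested on simulated data with the spread of KO D1 in every group. Those data held no library set apart as KO D4 replicate 2 was, so that test covers the code and not the calls. Of the tested entries, 233 were loci with no reference gene name from StringTie, and they stayed in the fit.

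Groups were taken from the sample titles. The difference between the KO and WT steps was a contrast over 12 libraries. The deviations of KO libraries with the same replicate number from their group means correlated at 0.26, 0.48 and 0.32. For KO libraries with other numbers the values ran from -0.45 to 0.24. The number was therefore used as a block in a second fit, and the pairing comes from the data and not from the labels. In WT the correlations of same-numbered libraries were -0.13, -0.37 and 0.36. The block was chosen from the values it was then tested on, so its p-values are no separate support. Where nothing names separate animals, p-values measure only the spread between these samples.

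The members and the 36 gene lists were chosen with earlier results of these data known. Named genes were Gsdme, the 10 largest called differences in each direction with a gene name and a mean of at least 10 TPM, key genes of each list, up to 3 called members of lists whose key genes were not called, and the 5 lowest p of the step difference. A few of them are not reported here. Alternatives were other pseudocounts (0.1 and 5), filters, scalings, a fit of all 8 injured groups, library quality weights, no variance trend, the block and the removal of each library. Promoter windows came from RefSeq (GRCm38.p6), and 154 of 217 named genes had one.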

Additional observations from a re-analysis of the deposited data

How the results depend on the processing

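With all 6 libraries 104 genes were called higher and 198 lower. The counts higher and lower were 49 and 110 with a pseudocount of 0.1, 0 and 0 with no filter on low values, 554 and 573 after median-of-ratios scaling, 609 and 708 after quantile normalization and 307 and 565 with abundant and mitochondrial genes removed. They were 1058 and 1958 with all 8 injured groups in the fit and 2431 and 4056 with library quality weights. With the replicate block, a pairing taken from these same values and not from the labels, they were 642 and 1665. Leaving out 1 library at a time gave between 0 and 884 genes higher and between 0 and 657 lower. All of the 302 calls were lost without KO D1 replicate 1 or KO D4 replicate 3, 0 and 24 genes were called without KO D1 replicate 2, 1 and 20 without KO D1 replicate 3, and 27 and 129 without KO D4 replicate 1. The other alternatives, a pseudocount of 5, a minimum of 5 TPM and no variance trend, kept both counts within 1.5 times. The cause was not tested.

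For the difference between KO and WT steps, 0 genes were called, 0 with the replicate block, where 1240 genes had an unadjusted p under 0.05, and 2599 with library quality weights. Without WT D1 replicate 2 the count was 0 and 3286 genes had an unadjusted p under 0.05. No label gives the replicate number a meaning, in KO or in WT, so the block rests on no known pairing. The Gsdme log2 difference lay between -0.29 and -0.05 when 1 library was left out.

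Some log2 differences changed sign. Without KO D4 replicate 2, medians near 0 crossed it, from -0.26 to 0.16 for interferon-stimulated genes, -0.07 to 0.29 for antigen presentation, -0.01 to 0.44 for lymphocyte genes, 0.11 to -0.05 for adipocyte genes and -0.17 to 0.02 for the growth factor list. With library quality weights, these were Myod1 at 0.41, Myh1 at -0.28, Cx3cr1 at 0.45, Tnc at 0.21, Lox at 0.07, Mmp3 at 0.25, Kdr at -0.18, Vwf at -0.25, Cox6a2 at -0.00, Cox7a1 at -0.14, Acadvl at -0.20, Pkm at 0.10, Mbp at -0.75, Sox10 at -0.44, Myh6 at -1.04, the Schwann cell and nerve median at -0.39 and the cardiac muscle median at -0.64. With a pseudocount of 5, this was Myh2 at 0.02. After median-of-ratios scaling, these were Myh2 at 0.22, Isg15 at 0.01, Pdgfra at 0.09, Ly6a at 0.07, mt-Co1 at 0.13, Pkm at 0.07, Klf2 at 0.12 and Il18 at 0.08. After quantile normalization, these were Myh2 at 0.11, Pdgfra at 0.12, Klf2 at 0.08 and Il18 at 0.07. With abundant and mitochondrial genes removed, this was Myh2 at 0.05. Over the fits that left out 1 library, the values ran for Myod1 from -0.74 to 0.26, Myog from -0.00 to 1.63, Myh1 from -0.02 to 0.69, Myh2 from -1.17 to 1.39, Ckm from -0.17 to 0.56, Pvalb from -0.16 to 0.94, Trem2 from -1.79 to 0.07, Mmp12 from -1.40 to 0.02, Csf1r from -0.27 to 0.83, Adgre1 from -1.01 to 0.34, Cx3cr1 from -0.64 to 0.64, C1qb from -0.32 to 0.96, Ciita from -0.05 to 0.93, Isg15 from -0.96 to 0.36, Ifit1 from -0.99 to 0.11, Pdgfra from -0.45 to 0.30, Ly6a from -0.46 to 0.06, Tnc from -1.30 to 0.82, Lox from -0.93 to 0.63, Mmp3 from -0.91 to 0.07, Mmp14 from -0.04 to 1.39, Cox6a2 from -0.04 to 0.61, Cox7a1 from -0.09 to 0.75, mt-Co1 from -0.51 to 0.17, Acadvl from -0.04 to 0.57, Klf2 from -0.29 to 0.16, Il18 from -0.49 to 0.44, Fst from -0.01 to 0.36, Sox10 from -0.19 to 0.62, Hba-a1 from -1.23 to 0.14, Hbb-bs from -1.18 to 0.23, Myh6 from -0.55 to 0.45, the erythrocyte median from -1.17 to 0.18 and the cardiac muscle median from -0.19 to 0.50.

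The precision is limited by 3 libraries per day, of which 1 stood apart, and by TPM, which shifts the other genes of a library when a few abundant genes take a larger share.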

Other observations

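Of the 302 called genes, 71 were in the lists above. The genes below are outside them, were picked one by one after their values were seen, and stand for no group, since other genes of the same roles were not counted. Among those that rose, Chrne, the adult subunit of the acetylcholine receptor, went from a mean of 2.78 to 10.3 TPM and Ache, the acetylcholinesterase, from 8.73 to 29.4 TPM. Mrln, a peptide that regulates the calcium pump, went from 17.6 to 91.9 TPM, and Hrc, a calcium-binding protein of the sarcoplasmic reticulum, from 145 to 392 TPM. Itm2a, a membrane protein of differentiating muscle and stromal cells, went from 66.3 to 379 TPM, and Scara5, a ferritin receptor of stromal cells, from 3.67 to 22 TPM. The log2 differences of other single genes that rose were those of Ank1 (1.68), Myoz3 (1.47), Prkag3 (1.64), Dhrs7c (1.69), Thra (1.24), Rxrg (1.46) and Mafa (1.57).

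Among single genes that fell, Slpi, an inhibitor of neutrophil elastase, went from a mean of 37.2 to 4.15 TPM, and Arg2, the mitochondrial arginase, from 6.26 to 0.04 TPM. The log2 differences of others were those of Ccr1 (-3.91), Cd177 (-2.55), Ltb4r1 (-2.63), Srgn (-2.76), Cebpb (-2.41), Nfkbia (-1.17), Nqo1 (-1.25), Gsr (-2.03), Mt4 (-4.21), Hyou1 (-1.60), Sdf2l1 (-2.46), Psmd2 (-1.05) and Psmd11 (-1.29).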
